A study of Mus musculus with 26 samples.

Results

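The loss of *Nanog* in mouse embryonic stem cells (ESCs) was followed across the transcriptome. RNA-seq values of *Nanog*-/- ESCs were set against those of wild-type (WT) ESCs for each of 15646 genes, of 15648 in the table, and 6 of the 26 samples of the series belong to this comparison, 3 of each genotype. WT ESCs were E14Tg2a cells, for which the growth protocol names the 129P2/OlaHsd background while the strain entry reads C57BL/6. *Nanog*-/- ESCs were the RCNβH-B(t) line, derived from E14Tg2a and used at passages 20 to 30. Both grew on gelatin with serum (15% FBS) and LIF at 1000 U/ml, and the *Nanog*-/- cells also received 25 µg/ml hygromycin while they were expanded. The *Nanog*-/- cells are a single derived line, so effects of the line, of its culture and of the genotype cannot be told apart. Epiblast stem cells (EpiSCs) from 129S2 embryos, grown on fibronectin in N2B27 with Activin A (20 ng/ml) and bFGF (12 ng/ml), provide a level for orientation from 4 samples.

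NANOG is a homeodomain transcription factor that, with OCT4 and SOX2, holds ESCs in the naive pluripotent state. In the blastocyst it marks the epiblast, while GATA6 marks the neighbouring primitive endoderm, and the balance between these fates is tuned by FGF signalling through ERK. ESCs without NANOG can still self-renew in LIF but differentiate more readily, and cells with a primitive endoderm character are known to arise among them.

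The knockout was visible at the gene itself. *Nanog* stood at 418 RPKM (reads scaled to gene length and library size, as the median of the group) in WT ESCs, 22.3 in *Nanog*-/- ESCs and 361 in EpiSCs. By the ratio of RPKM + 1 it had the largest fall of all genes, though not by the difference in RPKM. What the remaining 22.3 RPKM come from was not tested, and *Nanog* has pseudogene copies whose reads can be mistaken for its own. The primitive endoderm regulator *Gata6* rose from 0.538 to 16.4 RPKM and the endocytic adaptor *Dab2* from 1.47 to 16.8. *Sox15*, an SRY-box factor of ESCs, fell from 48.1 to 13.3 RPKM. *Spry4*, an inhibitor in the ERK pathway whose transcript follows ERK activity, rose from 34.0 to 111 RPKM. *Hprt*, the purine salvage gene that is deleted in part in the E14Tg2a parent, was low in both ESC groups (1.35 and 4.81 RPKM) and at 307 RPKM in EpiSCs.

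A gene was called higher or lower when (RPKM + 1) differed at least 2-fold between the groups. By that measure 264 genes were higher in *Nanog*-/- ESCs (1.69% of all) and 212 were lower (1.35%), 3.04% in either direction. Every list count given below is to be read beside these shares of all genes. Lists with only 1 or 2 calls hold too few to set apart from them. Of all genes, 13964 (89.2%) lay within 1.5-fold, and the median log2 ratio over all genes was 0.01. This share includes genes near 0 RPKM in both groups, which the added 1 RPKM keeps within 1.5-fold whatever their ratio. Over the 9902 genes with a mean of at least 1 RPKM the median was 0.07. Only 31 genes were higher and 23 lower by 4-fold or more, and 5 and 3 by 8-fold or more. Higher genes had a median of 1.83 RPKM in WT ESCs and 8.39 in *Nanog*-/- ESCs, and 78 of them were under 1 RPKM in WT ESCs. Lower genes had a median of 12.9 RPKM in WT ESCs and 4.22 in *Nanog*-/- ESCs, and 119 of the 212 were at 10 RPKM or more in WT ESCs. The call itself makes WT ESCs the low side of higher genes and the high side of lower genes, and with 1 RPKM added no gene under 1 RPKM in WT ESCs can be called lower, so these WT levels are not compared. Among the 979 genes at 100 RPKM or more in WT ESCs, 7 were higher and 16 lower. The medians of each group carry no replicate error and no test was made, so a call states a fold and nothing more, and when 5 RPKM are added in place of 1, only 88 of the 264 higher and 82 of the 212 lower genes keep their call, and 47 of the genes named by rule lose it. The order of the totals depends on scale, because 230 genes were higher and 239 lower after each group was scaled to a median log2 ratio of 0. In bulk RNA, more cells of a type and more RNA per cell cannot be told apart.

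**Figure D1:**
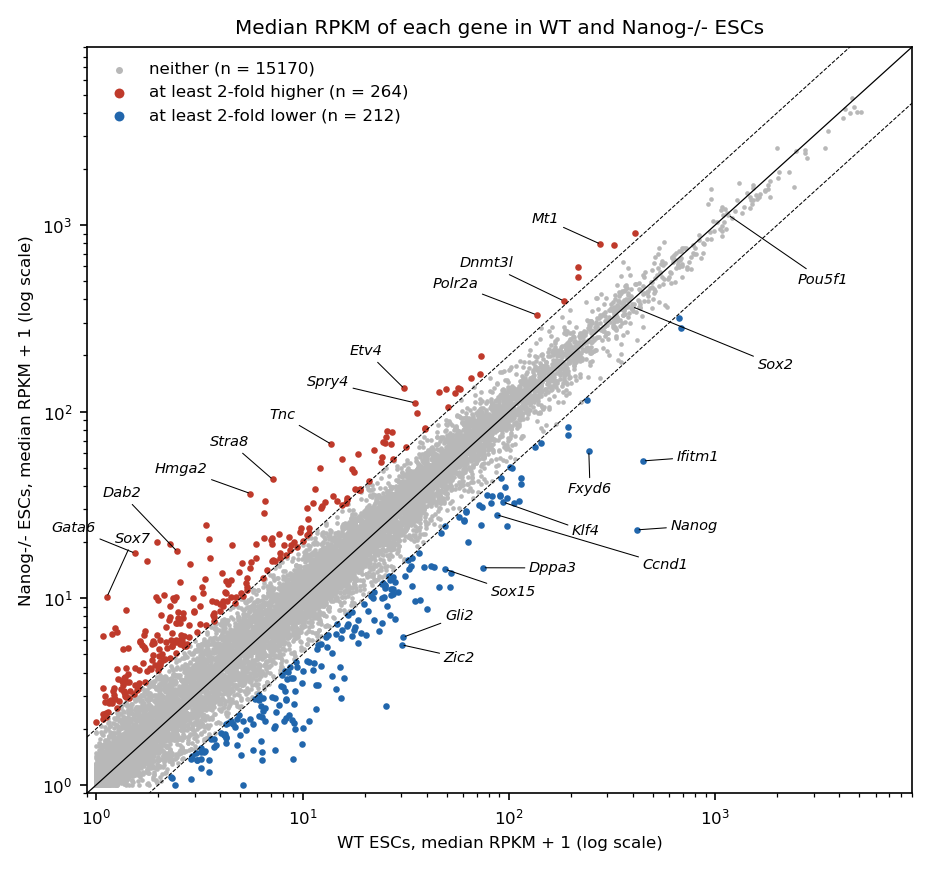
Median RPKM + 1 of each of 15646 genes in WT ESCs (horizontal, log scale) and in *Nanog*-/- ESCs (vertical, log scale), with solid and dashed lines for equal levels and 2-fold differences. The 264 higher genes (red) reach up to *Mt2* at 909.5 RPKM in *Nanog*-/- ESCs, the 212 lower genes (blue) up to *Ifitm2* at 678 in WT ESCs, and *Pou5f1* and *Sox2* lie near the diagonal.

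Primitive endoderm markers led the rises but were a small part of them. Of 28 listed markers in the table, 15 were higher and none lower, with a median log2 ratio of 1.41 against 0.01 for all genes. With 5 RPKM added in place of 1, the median of this list fell by 0.71. They supplied 11 of the 30 largest rises and 15 of the 264 higher genes, so 249 higher genes lie outside this list. Transcription factors of the lineage rose from very low levels, as *Sox7* from 0.127 to 9.18 RPKM, *Gata4* from 1.29 to 18.5 and *Sox17* from 0.237 to 5.93. The receptors of endocytic uptake *Cubn* (0.392 to 7.65 RPKM), *Lrp2* (6.67 to 21.1) and their partner *Amn* (2.35 to 11.7) rose with them. Other members of the list passed no threshold, such as *Afp*, *Ttr*, *Apoa1* and *Hnf4a*, under 1 RPKM in both groups, and the apolipoprotein gene *Apoe* at 562 and 808 RPKM.

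Some of the largest rises outside that list are described next by the roles of their products, a grouping made after the ranking. *Il1rl1*, the receptor for the cytokine IL-33, had the second largest rise of all, from 0.969 to 18.9 RPKM (10.1-fold on the RPKM + 1 scale). The chemokines *Ccl7* (2.39 to 23.6 RPKM), *Ccl2* (3.56 to 18.3) and *Cxcl1* (1.36 to 9.09), which attract monocytes or neutrophils, rose together with *Csf1*, the growth factor of macrophages (2.56 to 15.5). *Tnc*, which encodes the matrix protein tenascin C, rose from 12.8 to 65.9 RPKM and *Grem1*, a secreted BMP antagonist, from 5.57 to 32.2. The matrix protease gene *Mmp10* rose from 1.39 to 8.84 RPKM. In EpiSCs the levels of these genes ran from 2.71 RPKM for *Mmp10* to 74.9 for *Ccl2*.

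Markers of fibroblasts and leukocytes were looked at beside these rises. All 11 fibroblast markers found were above 0 on the log2 scale, also with either scaling, with a median of 0.38. *Twist2* (1.93 to 9.01 RPKM) and *Postn* (1.66 to 4.54) rose, the latter losing its call when the groups were scaled to a median log2 ratio of 0. None of the 11 was at 0 in either group, and the summed level was 280.3 RPKM in WT ESCs and 430.2 in *Nanog*-/- ESCs. The most abundant was *Vim* at 134 and 231 RPKM, a gene that other cell types express too, while the collagen genes *Col1a1* (15.0 and 17.0), *Col1a2* (5.73 and 6.53) and *Col3a1* (2.66 and 2.82) hardly differed. A group of leukocyte genes was put together after its values were seen, and of 29 found 6 were higher and none lower (median 0.39, summed 103 and 133 RPKM). The rises were *Clec4d* (0.631 to 4.91 RPKM), *Cd37* (1.65 to 7.38), *Nckap1l* (1.56 to 6.34), *Lyz1* (1.58 to 5.33), the adaptor gene *Tyrobp* (1.57 to 4.93) and *Cd53* (0.254 to 1.58). The pan-leukocyte gene *Ptprc*, for CD45, measured 0.167 and 0.411 RPKM and the macrophage gene *Emr1* 0.664 and 0.719, and *Cx3cr1* was at 0 in *Nanog*-/- ESCs. The most abundant were *Ptpn6* at 25.0 and 20.3 RPKM, *Cd68* at 24.0 and 16.9 and *Laptm5* at 15.7 and 21.8. The part of fibroblasts or leukocytes in the other results was not tested.

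Other large rises are of varied function. *Hmga2*, an architectural chromatin protein of embryonic cells, rose from 4.59 to 35.4 RPKM and stood at 102 in EpiSCs. *Stra8*, the retinoic-acid-induced gene of meiotic entry, rose from 6.16 to 42.3 RPKM and was at 0 in EpiSCs. The water channel gene *Aqp8* (0.0753 to 5.25 RPKM) and the cornified envelope gene *Lce1g* (0.257 to 5.60) were likewise at 0 in EpiSCs. *Gpnmb*, a transmembrane glycoprotein of the endolysosomal system, rose from 2.54 to 19.9 RPKM, and *Nostrin*, a trafficking adaptor of endothelial nitric oxide synthase, from 0.197 to 5.42. *Itpripl2* (1.84 to 14.3 RPKM) and the interferon-inducible *Ifi202b* (1.12 to 9.44) are also among the 30 largest rises, of which 14 lie in no list.

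**Figure D2:**
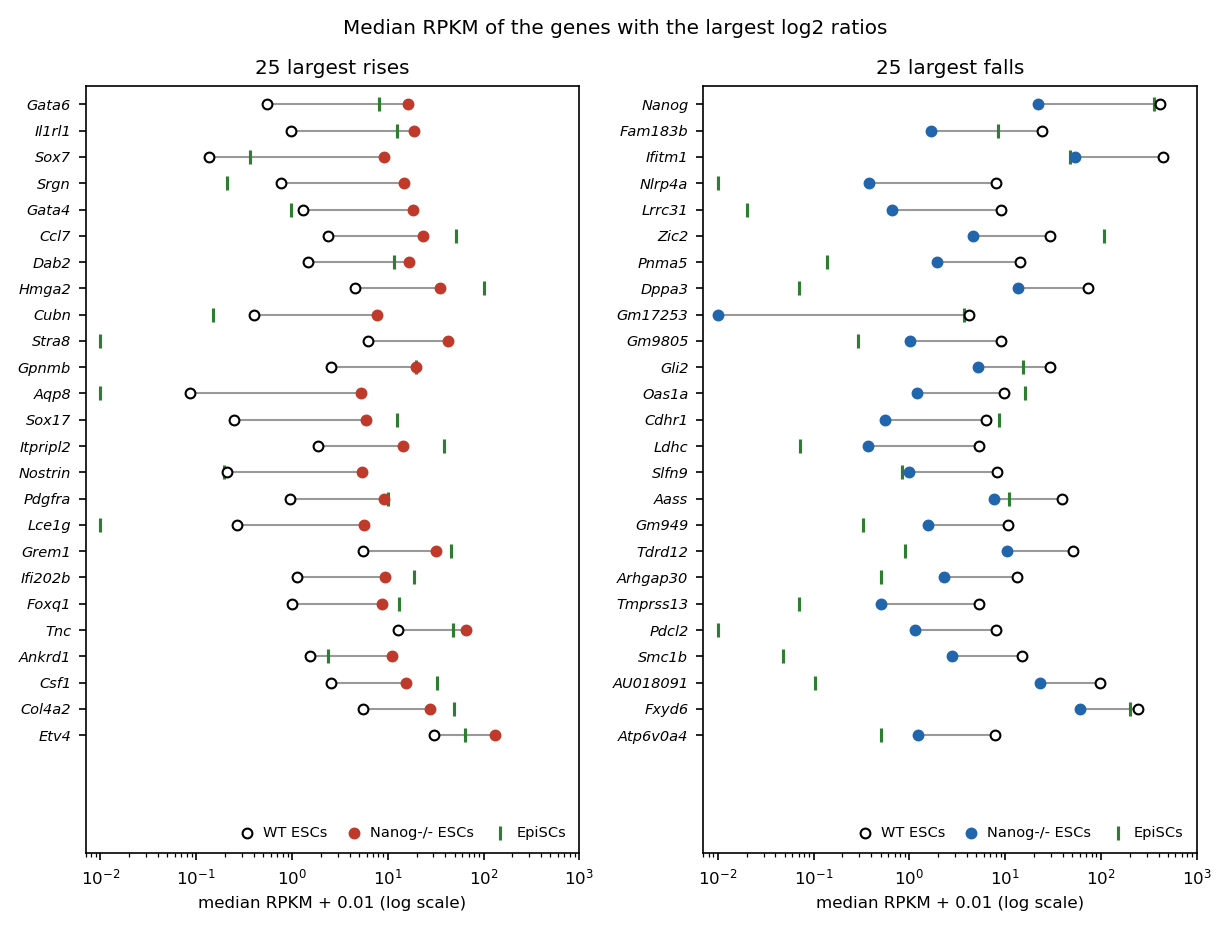
Median RPKM + 0.01 (horizontal, log scale) of the 25 genes with the largest rise (left) and the 25 with the largest fall (right) in WT ESCs (open circles), *Nanog*-/- ESCs (filled circles) and EpiSCs (green ticks), ordered by log2 ratio. *Gata6* tops the rises at 0.538 and 16.4 RPKM and *Nanog* the falls at 418 and 22.3 RPKM.

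Genes of FGF and ERK feedback, both inhibitors and transcription factors, were often higher. Of 20 genes found, 7 were higher and 1 lower, with a median log2 ratio of 0.54. Of all genes, 1.69% were higher and 1.35% lower. The ETS factor *Etv4* rose from 30.1 to 132 RPKM, the largest absolute step in this list. The ERK phosphatase genes *Dusp4* (24.5 to 78.2 RPKM) and *Dusp6* (34.8 to 96.8) rose beside *Spry4*. *Myc* rose from 24.2 to 72.2 RPKM, *Phlda1* from 5.51 to 20.1 and the AP-1 gene *Fosl1* from 1.81 to 6.16. The immediate early gene *Egr1* moved the other way, from 73.0 to 29.9 RPKM, and *Etv5*, the close relative of *Etv4*, measured 299 and 209 RPKM. Readouts of the same pathway thus moved in opposite directions. Among ligands, *Fgf4*, the main FGF of ESCs, measured 151 and 83.6 RPKM. *Fgf5*, *Fgf8* and *Fgf18* fell, while *Fgf10* rose from 0.861 to 3.65.

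Retinoic acid genes included 3 rises and no fall among 19, with a median log2 ratio of 0.37. The receptor gene *Rarg* rose from 71.6 to 159 RPKM, beside *Stra8*. The median of this list was 0.99 when 0.1 RPKM was added in place of 1, because many of its genes lie near 0. Synthesis and clearance enzymes stayed low, as *Aldh1a2* at 2.65 and 1.78 RPKM and *Cyp26a1* at 1.59 and 2.66.

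Of the 7 higher genes at 100 RPKM or more in WT ESCs, 3 are stress-protective and 1 is lysosomal. The metal-binding metallothioneins *Mt1* (277 to 789.6 RPKM) and *Mt2* (407 to 909.5) and the small heat shock gene *Hspb1* (322 to 785) rose, and *Atf3*, a stress-induced factor, rose from 3.21 to 9.80. These are the 4 rises among 15 heat shock and unfolded protein genes, of which none fell and whose median log2 ratio was 0.30. The share of all genes that were higher was 1.69%. The endoplasmic reticulum chaperone gene *Hspa5* measured 290.2 and 306 RPKM. *Ctsl*, a lysosomal cysteine protease, rose from 215 to 595 RPKM, and with *Dab2*, *Cubn* and *Lrp2*, also in the primitive endoderm list, it makes up the 4 rises among 26 lysosome and endocytosis genes (none lower, median 0.40). The summed level of that list was 1775 RPKM in WT ESCs and 2717 in *Nanog*-/- ESCs. Among Hippo and YAP targets, *Ankrd1* (1.53 to 11.2 RPKM) and the receptor kinase gene *Axl* (4.94 to 15.3) rose, no gene fell and the median of 15 genes was 0.39.

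Genes for chromatin and transcription showed a few calls in lists whose other members passed no threshold. The de novo DNA methyltransferase gene *Dnmt3a* rose from 21.1 to 61.6 RPKM and its cofactor *Dnmt3l* from 183 to 392, while *Dnmt3b* measured 210.2 and 183 RPKM and the maintenance gene *Dnmt1* 172 and 129.6. The other 15 of 17 DNA methylation and TET genes passed 2-fold in neither direction (list median 0.12). *Bmi1*, a subunit of Polycomb repressive complex 1, rose from 1.58 to 4.90 RPKM and was the only call among 25 Polycomb genes (median 0.22). That count cannot be set apart from the 3.04% of all genes past 2-fold. *Polr2a*, the largest subunit of RNA polymerase II, rose from 135 to 329 RPKM. Among general housekeeping genes, *Actb* measured 799 and 754 RPKM and *Gapdh* 1016 and 1033, and 3 of 12 rose, *Polr2a*, *B2m* and *Hprt* (median 0.13).

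The falls were led, after *Nanog*, by genes of varied function. *Fam183b* fell from 24.5 to 1.65 RPKM. *Ifitm1*, a small membrane protein that restricts viral entry, fell from 448 to 53.5 RPKM, and *Zic2*, a zinc finger factor of the epiblast and neural plate, from 29.3 to 4.62. The developmental regulator *Gli2*, an effector of Hedgehog signalling, fell from 29.8 to 5.19 RPKM. *Aass*, a lysine catabolic enzyme, fell from 39.3 to 7.71 RPKM, *Fxyd6*, a regulator of the sodium pump, from 243 to 60.4, and *Esrp1*, a splicing regulator of epithelial cells, from 36.0 to 8.82. Of the 30 largest falls, 24 lie in no list.

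Several of these falls are genes of the germline and the early embryo, a grouping made after the ranking and from no fixed list. *Dppa3*, a maternal and germline factor, fell from 74.1 to 13.6 RPKM. *Tdrd12*, a component of the piRNA pathway, fell from 50.8 to 10.5 RPKM, the meiotic cohesin gene *Smc1b* from 14.8 to 2.76 and *Ldhc*, the lactate dehydrogenase of testis, from 5.32 to 0.359. The oocyte-expressed *Nlrp4a* fell from 7.99 to 0.369 RPKM. All 5 genes were under 1 RPKM in EpiSCs. The list of germline genes chosen for the comparison did not share this direction, with 1 of 15 higher, none lower and a median of 0.35. Its rise was *Taf7l* (1.98 to 7.46 RPKM), and its most abundant members, *Sycp3* (109.5 and 95.2 RPKM) and *Tex19.1* (67.4 and 76.0), passed no threshold.

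Interferon-linked genes moved in both directions. Among 20 genes of antigen presentation and interferon response, 2 were higher and 3 lower (median -0.19). The MHC class I genes *H2-D1* (13.6 to 32.3 RPKM) and *B2m* (55.7 to 132) rose. *Ifitm1*, *Ifitm2* (678 to 279 RPKM) and the antiviral sensor *Oas1a* (9.79 to 1.20) fell, and *Ifitm3* measured 275 and 151. Outside the list, *Ifi202b* and the ISG15-conjugating enzyme gene *Ube2l6* (2.20 to 8.03 RPKM) rose. The summed level of the list was 2022 RPKM in WT ESCs and 1182 in *Nanog*-/- ESCs, a difference carried mostly by the *Ifitm* genes. Typical interferon-induced genes were low throughout, as *Isg15* at 2.24 and 1.76 RPKM. MHC and *Ifitm* genes have close relatives that can share reads.

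The core of the pluripotency network passed no threshold, as none of 14 genes of general pluripotency reached 2-fold (median 0.16). *Pou5f1*, which encodes OCT4, measured 1159 RPKM in WT ESCs and 1129 in *Nanog*-/- ESCs, *Sox2* 397 and 364, *Dppa5a* 4144 and 3731 and the Nodal coreceptor gene *Tdgf1* 1079 and 1254. Naive genes were affected unevenly, with 6 lower and 1 higher among 20 and a median of -0.42. Besides *Nanog*, *Dppa3* and *Sox15*, the falls were *Klf4* (93.0 to 31.7 RPKM), the nuclear receptor gene *Nr5a2* (26.4 to 9.59) and the lysosomal mannosidase gene *Manba* (35.6 to 16.6). *Gbx2*, a homeobox gene induced by LIF, rose from 10.4 to 37.4 RPKM. *Esrrb*, at 210.4 and 147 RPKM, and *Klf2*, at 302 and 244, passed no threshold.

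Genes of the primed epiblast, the state that EpiSCs represent, moved in both directions. Among 15 primed genes 3 were higher and 4 lower (median -0.20). *Dnmt3a*, *Sox4* (23.4 to 56.1 RPKM) and the bHLH gene *Tcf15* (72.3 to 197) rose. *Fgf5* fell from 4.74 to 1.11 RPKM and stood at 219 in EpiSCs. *Zic2* and its neighbour *Zic5* (28.0 to 9.83 RPKM) fell too, and were at 108 and 51.1 RPKM in EpiSCs, and the Wnt effector gene *Lef1* fell from 9.72 to 3.54. *Tcf15* stood at 16.3 RPKM in EpiSCs and *Sox4* at 127. The EpiSC column is on a larger scale, with a median gene at 8.58 RPKM against 3.93 in WT ESCs and 4.23 in *Nanog*-/- ESCs, and contrasts of either cell type with WT ESCs would share the WT samples, so levels alone are set side by side.

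Signals that support or oppose pluripotency moved at single members. In the LIF and STAT3 list of 14 genes, *Gbx2* and the receptor gene *Osmr* (0.522 to 2.08 RPKM) rose and *Klf4* and the kinase gene *Sgk1* (105 to 31.5) fell, with a median of 0.13. *Socs3*, the feedback inhibitor of LIF signalling, measured 88.3 and 104 RPKM. In the Nodal and Activin list of 18 genes (median 0.17), the activin subunit genes changed in opposite directions, *Inhba* from 3.90 to 12.8 RPKM and *Inhbb* from 10.3 to 3.11, and *Lefty2* measured 179.8 and 319 RPKM. *Grem1* was the only call among 18 BMP and Id genes (median 0.16), too few to set apart from the 3.04% of all genes past 2-fold. *Id1* measured 27.8 and 50.4 RPKM. Among 25 Wnt genes (median -0.17), the antagonist *Dkk1* rose from 0.363 to 2.73 RPKM, while *Sfrp1* (16.4 to 5.25), *Wnt7b* (4.32 to 0.973) and *Lef1* fell. *Osmr* lost its call, at a log2 ratio of 0.97, when the groups were scaled to a median log2 ratio of 0.

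Metabolic genes were compared by pathway. Of 22 glycolysis genes 3 were lower and none higher (median -0.12), beside 1.35% lower and 1.69% higher among all genes. The lower genes were the lactate dehydrogenase gene *Ldhb* (669 to 315 RPKM), the phosphofructokinase gene *Pfkp* (114 to 43.3) and the aldolase gene *Aldoc* (42.2 to 13.8). Their paralogs in this list passed no threshold, with *Ldha* at 1426 and 1479 RPKM and *Pfkm* at 47.3 and 53.1. Outside the list, the *Ldhb* paralog *Ldhc* fell from 5.32 to 0.359 RPKM. All 15 cholesterol synthesis genes had a log2 ratio under 0, also with either scaling, and none passed 2-fold. The median of this list was -0.43, and its summed level was 918 RPKM in WT ESCs and 663 in *Nanog*-/- ESCs. *Fdps*, an enzyme of the isoprenoid steps, measured 251 and 185 RPKM. Among 17 hypoxia response genes only *Ndrg1* was called, falling from 16.9 to 5.99 RPKM (median -0.21). That count cannot be set apart from the 3.04% of all genes past 2-fold. The glucose transporter gene *Slc2a1* measured 535 and 756 RPKM without passing 2-fold.

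Some genes of epithelial adhesion fell. Among 30 junction and keratin genes 4 were lower and 1 higher (median 0.02, and -0.03 when scaled to a median log2 ratio of 0). The adherens junction gene *Cdh1*, for E-cadherin, fell from 238 to 115 RPKM, *Cdh3*, for P-cadherin, from 31.4 to 14.9 and the tight junction gene *Tjp3* from 25.5 to 11.5, beside *Esrp1*. The *Cdh1* repressor *Zeb2* rose from 0.412 to 2.57 RPKM. Other repressors were at *Snai1* 4.73 and 9.77, *Snai2* 0.894 and 2.43 and *Zeb1* 2.04 and 4.23 RPKM, none of them past 2-fold, and *Epcam* measured 195 and 149.8 RPKM. Among 24 actin and smooth muscle genes (median 0.01, with a sign that flips under either scaling), the galectin gene *Lgals1* rose from 216 to 523 RPKM, *Anxa3* from 16.9 to 37.4 and *Cald1* from 15.4 to 32.5, and *Acta1* fell from 5.15 to 1.86. *Cald1* lost its call, at 0.96, when the groups were scaled to a median log2 ratio of 0. Among 21 integrin genes *Itga2* rose from 0.225 to 2.05 RPKM and *Itga9* fell from 5.28 to 1.66 (median 0.04, and 0 with that scaling). These integrin calls are too few to set apart from the 3.04% of all genes past 2-fold. Among 21 basement membrane and collagen genes *Lama1* (11.2 to 49.0 RPKM) and *Col4a2* (5.52 to 27.6) rose and none fell (median 0.14).

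Genes of proliferation and cell death held 1 call among 27 and 1 among 17, too few to set apart from the 3.04% of all genes past 2-fold. *Ccnd1*, the cyclin D of the G1 phase, fell from 86.4 to 27.0 RPKM and was the only call among 27 cell cycle genes (median -0.10). *Cdc20* (365 and 447 RPKM) and *Mcm3* (359 and 351) were the most abundant of them. Among 17 p53 and apoptosis genes, the BH3-only gene *Pmaip1* rose from 16.8 to 46.2 RPKM (median 0.17), while *Cdkn1a* measured 58.7 and 54.1 and *Mcl1* 350.1 and 529. *Atf3* rose and *Egr1* fell among 17 dissociation and immediate early genes (median 0.08). Among 23 imprinted genes (median -0.05), *Igf2* (9.74 to 22.8 RPKM) and *Dlk1* (1.03 to 3.57) rose, while *Nnat* (5.25 to 0.726), *Peg3* (18.9 to 8.33) and *Usp29* (2.60 to 0.756) fell.

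**Figure D3:**
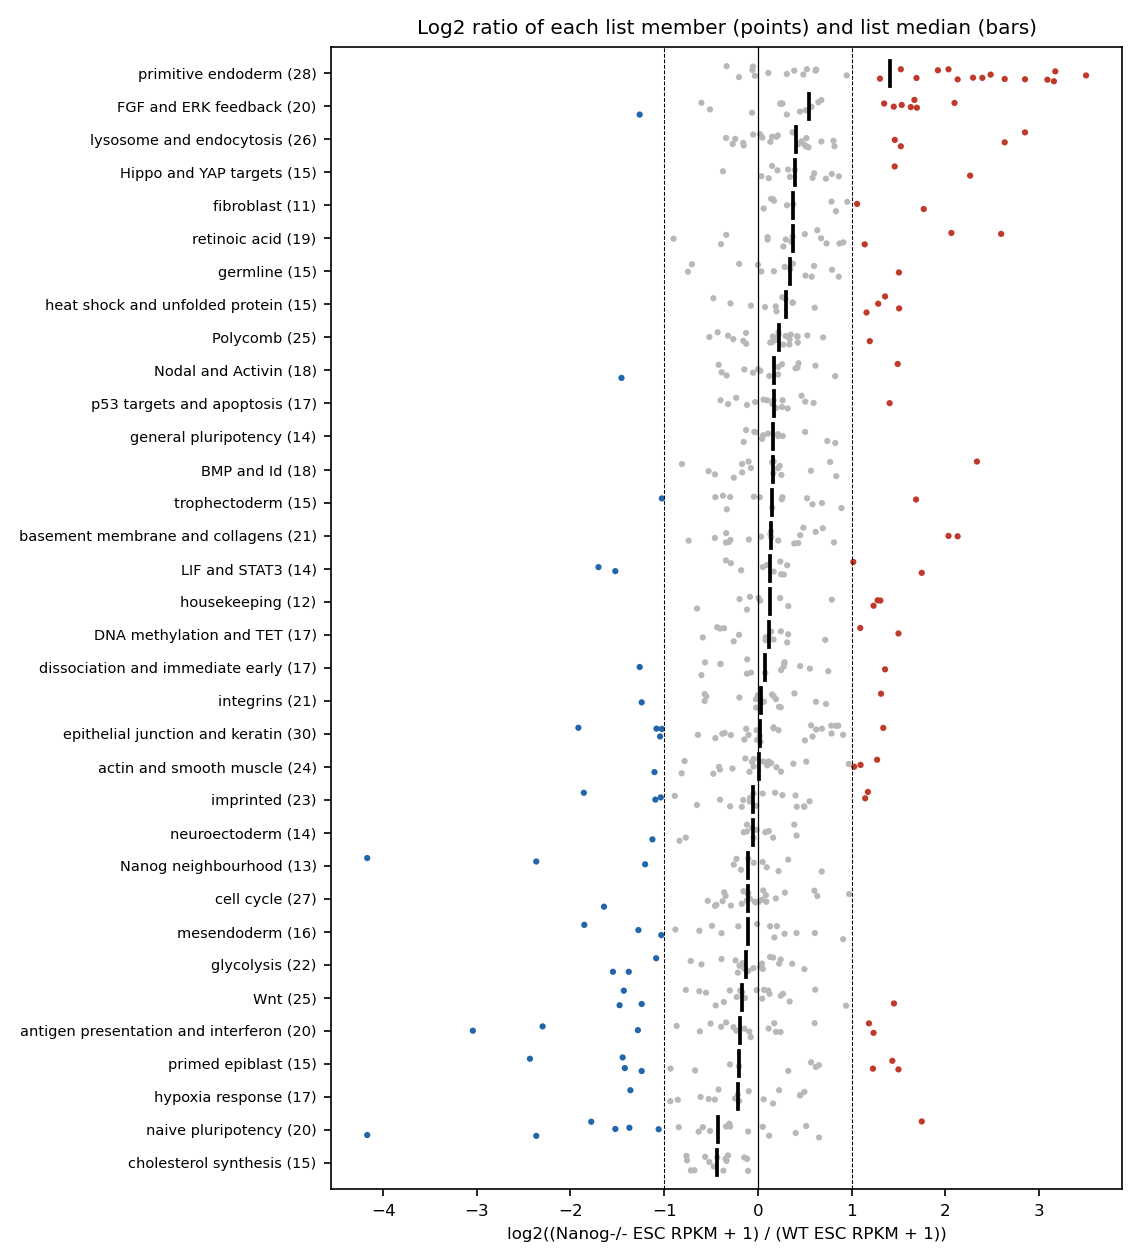
Log2 ratio of *Nanog*-/- over WT ESCs (horizontal, 1 RPKM added) for each member of each gene list (points, red for at least 2-fold higher, blue for at least 2-fold lower), with list medians (bars) and the number of genes found in brackets, for lists with at least 3 genes found. Primitive endoderm has the highest median at 1.41 and cholesterol synthesis the lowest at -0.43, and most other medians lie near 0.

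Markers of other lineages were mostly low and did not move together. Among 16 mesendoderm genes none was higher and 3 were lower, *T* (3.37 to 1.14 RPKM), *Cer1* (1.42 to 0) and *Fgf8* (6.26 to 1.01), with a summed level of 31.6 RPKM in WT ESCs and 28.1 in *Nanog*-/- ESCs (median -0.11). In the neuroectoderm list of 14 genes, *Tubb3* fell from 77.1 to 34.8 RPKM (median -0.05). The summed level of these genes was 457 and 269 RPKM, of which the tubulin-binding *Stmn2* held 347 and 203, and *Olig2* and *Neurog2* were at 0 in *Nanog*-/- ESCs. Among 15 trophectoderm genes *Hand1* rose from 0.705 to 4.49 RPKM and *Cdh3* fell (median 0.15, summed 203 and 241 RPKM), *Krt8* was the most abundant at 53.8 and 81.1 RPKM, and the defining factors *Cdx2* (0.466 and 1.72) and *Elf5* (0.0978 and 0.0659) were near 0. The listed *Tfap2c* is not among the 15, because list members were matched by symbol. Under its older symbol *Tcfap2c* it was lower, from 32.8 to 15.4 RPKM. No gene of the Y-linked and mitochondrially encoded lists is in the table.

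Calls were also counted over gene families defined by their shared symbol. The families given are among those with the highest shares of 250 with at least 8 members, so a share above that of all genes (1.69% higher, 1.35% lower) follows from the choice. The *Ccl* chemokines had the highest share of higher genes, 4 of 15 (26.7%), with *Ccl8* (1.17 to 4.80 RPKM) and *Ccl6* (0.332 to 2.59) joining *Ccl7* and *Ccl2*. Their median log2 ratio was 0.15, as most other *Ccl* genes were close to 0 RPKM. Among 18 *Sox* genes 4 were higher (22.2%), *Sox7*, *Sox17*, *Sox4* and the endothelial factor *Sox18* (1.25 to 6.63 RPKM), and *Sox15* was lower. Among 20 *Mmp* genes, which encode matrix metalloproteases, 4 were higher (20%), *Mmp10*, *Mmp3* (10.2 to 31.3 RPKM), *Mmp9* (1.64 to 6.83) and *Mmp13* (0.886 to 4.92). Aquaporins had 2 of 9 higher, *Aqp8* and *Aqp5* (1.48 to 6.85 RPKM), and annexins a single one of 8, *Anxa3*.

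On the falling side, the *Fgf* ligand family had 3 of 15 genes lower (20%), *Fgf8*, *Fgf5* and *Fgf18* (7.56 to 1.37 RPKM), while *Fgf10* rose from 0.861 to 3.65. With the groups scaled to a median log2 ratio of 0, 4 *Fgf* genes were lower. The *Nlrp* family had 2 of 10 lower, *Nlrp4a* and *Nlrp9b* (6.09 to 1.94 RPKM), and 1 higher, *Nlrp4f* (1.47 to 6.40). Among 13 *Klk* genes, which encode kallikrein proteases, *Klk8* (21.3 to 6.62 RPKM) and *Klk13* (4.12 to 1.21) were lower, and among 13 *Serpinb* genes, which encode protease inhibitors, *Serpinb6c* (22.5 to 5.65) and *Serpinb1a* (2.08 to 0.356). *Cdh1* and *Cdh3* were the 2 lower genes of 15 cadherins. The symbols that share the stem N, which are not related genes, also passed the minimum of members, with *N4bp3* (59.4 to 25.0 RPKM) as the only lower gene of 8.

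Position in the genome was compared next, with genes ordered along each chromosome by their promoter fragments. The share of higher genes ran from 0.857% on chromosome 17 to 2.35% on chromosome 15 and that of lower genes from 0.4% on chromosome 12 to 2.16% on chromosome 14. Over the genes with a mean of at least 1 RPKM, chromosome medians of the log2 ratio ran from 0.01 to 0.10, beside 0.07 for the 9902 such genes of the table. There were 7 runs of 3 neighbouring genes past 2-fold in the same direction. *Ccl2*, *Ccl7* and *Ccl8* rose within 81.3 kb of chromosome 11, and *Cxcl1*, *Mthfd2l* and the EGF-family ligand gene *Ereg* (0.453 to 2.19 RPKM) within 187 kb of chromosome 5. *Lrriq4* (7.08 to 1.19 RPKM), *Lrrc34* (44.6 to 10.6) and *Lrrc31* (8.99 to 0.655), leucine-rich-repeat genes, fell within 63.9 kb of chromosome 3. On chromosome 9 the protease gene *Tmprss13* (5.37 to 0.496 RPKM), *Fxyd6* and *Fxyd2* (2.20 to 0.228) fell within 83.5 kb, and on chromosome 10 *Myb* (8.97 to 2.51), *1700020N01Rik* and *Sgk1* fell within 726 kb. The other runs rose, *Lce1g*, *Crct1* and *Tchh* of the epidermal differentiation region on chromosome 3 and *AI607873*, *Ifi202b* and *Spna1* on chromosome 1.

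Around *Nanog* on chromosome 6, the fall was not shared by the whole neighbourhood. *Dppa3*, whose promoter fragment lies 81.8 kb away, fell, but *Slc2a3* on the other side, 88.4 kb away, measured 469 and 437 RPKM, *Phc1* 292 and 340.1 and *Necap1* 69.9 and 67.8. Of 13 listed genes of the region *A2m* (15.7 to 6.25 RPKM) was the other to fall (median -0.10).

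**Figure D4:**
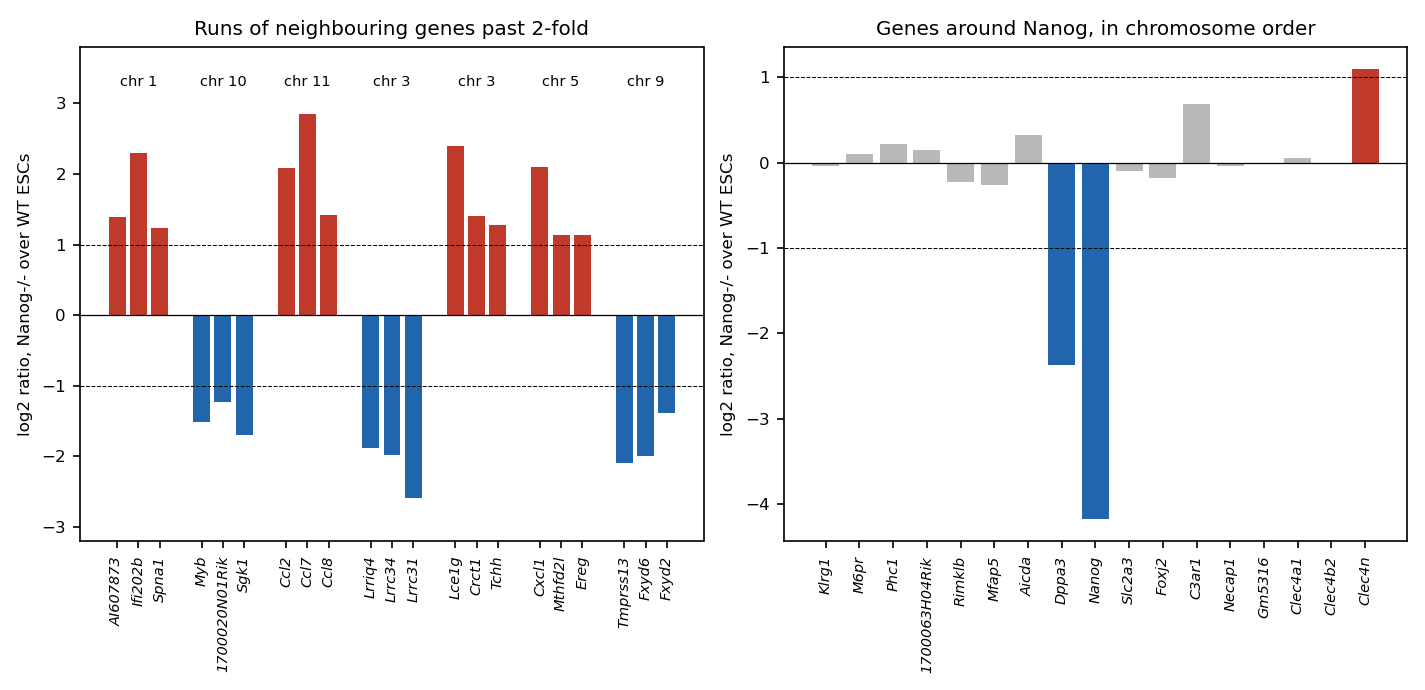
Log2 ratio of *Nanog*-/- over WT ESCs (vertical, 1 RPKM added) for the genes of the 7 runs of neighbours past 2-fold (left) and for the genes on either side of *Nanog* in chromosome order (right), with dashed lines at 2-fold. Beside *Nanog* at -4.17, *Dppa3* at -2.37 stands among neighbours such as *Slc2a3* at -0.10, and the farthest gene shown, *Clec4n*, is at 1.09.

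Promoter contacts, measured by promoter capture Hi-C in the same cell types, were set beside expression. Listed contacts of baited promoters were counted for each gene. Of the higher genes 87.5% had a listed contact in WT ESCs and 76.5% in *Nanog*-/- ESCs, of the lower genes 91.5% and 80.2%, and of the other genes 88.4% and 74.5%. The share was thus smaller in the *Nanog*-/- list for each class of genes. The lists differ in size, with 100492 different pairs of fragments in WT ESCs and 74931 in *Nanog*-/- ESCs, and have no replicates, so a difference between them was not tested. At single promoters, *Nanog* had 20 contacts in WT ESCs and 11 in *Nanog*-/- ESCs, 8 of them in both lists. *Gata6* had 4 and 1, *Sox17* 8 and 2, *Etv4* 7 and 1, and *Pdgfra*, the receptor gene that marks primitive endoderm (0.938 to 9.20 RPKM), 12 and 18. *Stra8* had 21 and 17 contacts and *Zic2* 20 and 21. Of the 30 largest rises, 18 (60%) had fewer contacts in the shorter *Nanog*-/- list, 6 as many and 6 more, and of the 30 largest falls 15 (50%) had fewer, 8 as many and 7 more. Fewer contacts were listed for 56.8% of all higher genes, 56.1% of lower genes and 59.6% of the others.

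Promoter sequence was looked at for the GATA motif, since *Gata6* and *Gata4* were among the largest rises. Of the 30 largest rises, 20 have a promoter in the RefSeq table (GRCm38.p6, 300 bases around the start of the gene), and 2 of these promoters hold TGATAA or its complement TTATCA. The motif occurs in 6.18% of the 10650 promoters matched. With 68.1% of the genes and 20 of the 30 largest rises matched, a comparison of motif shares is void, also that of the 2 promoters with the share over all. The promoters of *Il1rl1* (chr1:40429320-40429619, plus strand) and *Dab2* (chr15:6299539-6299838, plus strand) are shown, 5′ to 3′, because both genes rose steeply and hold a match, in capitals. A match describes letters only and says nothing of binding.
*Il1rl1*: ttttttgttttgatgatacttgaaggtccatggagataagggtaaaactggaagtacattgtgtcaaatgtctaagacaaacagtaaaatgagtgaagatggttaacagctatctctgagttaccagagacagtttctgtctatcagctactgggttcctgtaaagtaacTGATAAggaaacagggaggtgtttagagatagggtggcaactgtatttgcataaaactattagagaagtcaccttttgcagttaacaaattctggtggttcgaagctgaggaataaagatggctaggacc
*Dab2*: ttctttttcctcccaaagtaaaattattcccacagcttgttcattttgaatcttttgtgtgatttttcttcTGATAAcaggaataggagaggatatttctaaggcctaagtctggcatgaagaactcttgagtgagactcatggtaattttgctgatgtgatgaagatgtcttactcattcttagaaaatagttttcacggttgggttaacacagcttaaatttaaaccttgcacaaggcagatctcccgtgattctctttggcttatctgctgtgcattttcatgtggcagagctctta

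The 2-fold threshold divides genes that hardly differ. Just above it were *Rnf157* (4.13 to 9.27 RPKM), *Kdelr3* (18.04 to 37.1) and *Tmem9b* (5.40 to 11.8), and just below it *A930038C07Rik* (0.145 and 1.29), *S1pr1* (0.625 and 2.25) and *Fgf7* (0.320 and 1.64). On the falling side, *X99384* (100.1 to 49.5 RPKM), *1700029P11Rik* (25.2 to 12.1) and *D0H4S114* (13.6 to 6.29) were just inside, and *Kif26a* (10.9 and 4.97), *Psat1* (222 and 111) and *Ccno* (10.7 and 4.91) just outside. With either scaling, the 3 genes just above the threshold for rises lose their call and the 3 just outside that for falls gain it.

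By the difference in RPKM instead of the ratio, the list was led by abundant transcripts under 2-fold. The ferritin genes *Ftl1* (955 and 1557 RPKM) and *Fth1* (958 and 1372), the chaperone genes *Hsp90aa1* (1984 and 2572) and *Hspa8* (1298 and 1676) and the glutathione peroxidase gene *Gpx4* (926 and 1292) had the highest gains, beside *Mt1*, *Mt2*, *Hspb1*, *Ctsl* and *Lgals1*, which passed 2-fold. The largest losses were those of *Rplp1* (5099 and 4055 RPKM), *Eef2* (3401 and 2599), *Ptma* (4845 and 4044) and *Lars2* (2397 and 1597). *Rps15* (2799 and 2276), *Rpl32* (4516 and 3998), *Aldoa* (1852 and 1415), *Dppa5a*, *Gm10076* (4709 and 4307) and *Ifitm2* complete the 10, of which only *Ifitm2* passed 2-fold.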

How the data were processed

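RNA was extracted with RNeasy, and libraries were made from 500 ng of total RNA with TruSeq RNA v2, which selects poly-A RNA and does not mark strands, so antisense transcripts cannot be separated. Sequencing was single-end at 50 or 100 bases on HiSeq, and which sample had which length is not stated. The labels name Trim Galore, TopHat and DESeq2, without versions, and GRCm38. The authors deposited a table of median RPKM per group. Its further columns hold the authors' log2 fold changes and p-values and were not used. The contact lists hold read counts and a CHiCAGO score for each pair of HindIII fragments, both as deposited by the authors after combining replicates, with no score under 5.

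Of 15741 entries, 57 genes with several entries were reduced to 1 each, and 2 genes without RPKM were left out. The log2 ratio was log2((*Nanog*-/- + 1)/(WT + 1)), called at 1 or more either way. No test was possible on medians. Depth per sample is not given. Low values move in steps of 0.0270 and 0.0396 RPM (reads scaled to library size) in WT ESCs and 0.0329 and 0.0372 in *Nanog*-/- ESCs, which limits precision near 0. Named genes are the 30 largest rises and falls, list members past 2-fold, the 2 most abundant members of lists with fewer than 3 such members, the 5 markers, 3 genes each side of each threshold and the 10 largest RPKM differences each way, 190 in all. *Ifitm3*, *Esrrb* and other genes given as level comparisons, and genes of families, runs and neighbours outside this rule, were chosen after their values were seen. Members and lists were chosen with earlier results of these data known. Genes were placed by their baited fragment, and 13686 of 13690 genes with a RefSeq symbol lie on the chromosome RefSeq gives. Alternatives varied the RPKM added, a filter at a mean of 1 RPKM, scaling, the fold threshold and the entry used per gene. Python 3.11.15 was used with numpy 2.4.6, pandas 2.3.3 and matplotlib 3.10.9, and the steps were tested on simulated data.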

Additional observations from a re-analysis of the deposited data

How the results depend on the processing

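The number of genes at least 2-fold higher was 884 with 0.1 RPKM added, 88 with 5 RPKM added, 980 at a threshold of 1.5-fold and 31 at 4-fold, and the number lower was 549, 82, 702 and 23. By arithmetic alone, each looser setting kept all 264 and 212 genes, and each stricter one gave a subset of them. With a filter at a mean of 1 RPKM or with either scaling (to a median log2 ratio of 0 or to the same sum of RPKM), counts changed less. They were 230 to 257 higher and 208 to 239 lower. Taking the first entry of each gene could change nothing, because no gene had entries that differ in RPKM. The median of the retinoic acid list was 0.99 with 0.1 RPKM added and that of the primitive endoderm list 0.70 with 5 RPKM added, and no other list median of 35 moved by more than 1.5-fold. The filter turned the sign of 1 list median and moved list medians by up to 0.51. None of these settings can turn the direction of a call, so unchanged directions say nothing of stability. With 5 RPKM added, 47 named genes lost their call, mostly of low level, such as *Fgf5* at -0.67 and *Hand1* at 0.73. No paired analysis was possible because the columns carry no replicate numbers.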

Other observations

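Further groups of genes were put together after their values were seen, so their counts describe and support nothing. Inflammatory mediators and NF-kB targets held 10 higher and 1 lower among 26 genes, with a median log2 ratio of 0.55. Besides the chemokines and *Csf1*, the prostaglandin enzymes *Ptgs2* (3.36 to 10.9 RPKM) and *Ptges* (3.08 to 12.7), the adhesion gene *Vcam1* (0.864 to 4.67) and the NF-kB inhibitor *Tnfaip3* (1.02 to 3.93) rose, another such inhibitor, *Tnip1*, fell (45.8 to 21.3), and the cytokine genes *Tnf* and *Il1b* stayed under 1 RPKM in both ESC groups. Targets of the oxidative stress factor NRF2 held 5 higher and none lower among 20 (median 0.42), with the quinone reductase gene *Nqo1* from 16.3 to 48.3 RPKM and the sulfiredoxin gene *Srxn1* from 26.1 to 76.7. *Txnrd1* measured 196 and 349 RPKM and *Hmox1* 97.9 and 118, under 2-fold.

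Genes of meiosis, the piRNA pathway and the oocyte held 10 lower and none higher among 25 (median -0.29), a count that rests on the choice of members. *Stra8* and *Taf7l*, germ cell genes of other lists, rose, and 12 of the 15 genes of the germline list had a log2 ratio above 0. *Morc1* fell from 81.3 to 31.5 RPKM and the oocyte gene *Ooep* from 72.4 to 23.8, while the meiotic recombinase gene *Dmc1* measured 8.64 and 7.62. The RNA helicase gene *Mov10*, counted among the 10, fell from 111 to 32.1 RPKM. It stood at 59.7 RPKM in EpiSCs, against 0.208 for *Morc1* and 0.0984 for *Ooep*, so it is not particular to this group. In the Hedgehog group of 13 genes *Gli2* and *Gli1* (37.7 to 13.8 RPKM) fell and none rose (median -0.08). The receptor gene *Ptch1*, itself a target, measured 72.2 and 39.7 RPKM, and the ligand gene *Shh* was at 0 and 0.0260 RPKM.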
